A study of Mus musculus with 6 samples.

Results

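The urea cycle disposes of ammonia, the toxic product of amino acid breakdown, by building it into urea, and in mammals the complete cycle runs in the liver, chiefly in the periportal hepatocytes that lie where blood enters the lobule. Its first steps take place in the mitochondrial matrix and the others in the cytosol, so that ornithine, citrulline, aspartate and glutamate have to be carried across the inner mitochondrial membrane. The genes described here are the enzymes of the cycle with the synthase of its activator (*Nags*, *Cps1*, *Otc*, *Ass1*, *Asl* and *Arg1*), 3 mitochondrial carriers (*Slc25a15*, *Slc25a13* and *Slc25a22*) and *Glud1*, the glutamate dehydrogenase that releases ammonia in the matrix. They were chosen by name, and all 10 had a row among the 55401 genes of the deposited table. All 10 also passed the filter applied before testing, a mean of at least 1 FPKM over the libraries, which 10051 genes passed. FPKM are fragments scaled to transcript length and to the mapped fragments of the library. This allows for length between genes and for depth between libraries, but not for a difference in RNA composition between libraries. The tests used counts with a further scaling (TMM). Its factors were 0.961 and 0.952 in COS+APAP, 0.949 and 0.992 in APAP, and 1.07 and 1.085 in control.

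The libraries are poly(A) RNA of liver from C57BL/6 mice, 6 in all, with 2 in each of 3 groups. The COS+APAP group is replicates 2 and 3, from mice that received 20 mg/kg costunolide (COS, a sesquiterpene lactone of plants) 12 h and again 40 min before 400 mg/kg acetaminophen (APAP, paracetamol), injected into the peritoneum. These livers were taken 6 h after APAP. The APAP group is replicates 1 and 3, taken 6 h after the same APAP dose without COS, and the control group is replicates 1 and 3, labelled normal. No group received COS alone, and the labels name no vehicle for the control mice and give no sign of whether the 2 libraries of a group are 2 mice, so the p-values measure the spread between these libraries. The protocol text assigns the pretreatment to samples 5 and 6, which in the order of deposit are the libraries titled and labelled as APAP alone. If that text rather than the titles and treatment labels were right, the COS+APAP and APAP names would change places in everything below. The COS+APAP titles also carry another first number (2) than the other titles (1), and the titles do not say what it stands for. In the 6 libraries used, a batch that follows this number and COS cannot be told apart.

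The libraries held 71115112 to 76669799 estimated counts. Transcripts of the mitochondrial genome took 10.83% to 11.8% of the counts in COS+APAP, 7.37% to 8.28% in APAP and 12.78% to 16.09% in control. The 5 hepatocyte markers with a row, albumin among them, summed to 45430 to 47840 FPKM in COS+APAP, 57390 to 59860 in APAP and 49030 to 49520 in control. Most of this sum was albumin, with 27518 and 26619 FPKM in COS+APAP, 39526 and 35830 in APAP, and 28986 and 29091 in control. In the test described below, *Ttr* was lower and *Fgb* higher in APAP than in control (log2 fold change -0.78 and 1.21). Albumin, *Apoa1* and *Serpina1c* passed in no comparison. The 3 kidney tubule markers were listed at 0 in all 6 libraries. In whole liver RNA, fewer cells of a type and less RNA per cell cannot be told apart.

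Among the carriers *Slc25a22* and *Slc25a15* rose in COS+APAP against APAP, while *Slc25a13* did not pass the test (adjusted p = 0.0691), and the difference between the carriers was not tested. The 250 bases before their transcription starts are shown for comparison, from RefSeq on GRCm38.p6, each read 5′ to 3′ on the strand of the gene. RefSeq gave 3 starts for *Slc25a22* and 2 for *Slc25a15*. Of these, the start nearest that of the deposited gene was used, and motifs before the others are not reported. The windows are chr7:141437875-141438124 (minus strand) for *Slc25a22*, chr8:22398622-22398871 (minus strand) for *Slc25a15* and chr6:6217174-6217423 (minus strand) for *Slc25a13*. Capitals mark a match to a motif searched on both strands.
Slc25a22: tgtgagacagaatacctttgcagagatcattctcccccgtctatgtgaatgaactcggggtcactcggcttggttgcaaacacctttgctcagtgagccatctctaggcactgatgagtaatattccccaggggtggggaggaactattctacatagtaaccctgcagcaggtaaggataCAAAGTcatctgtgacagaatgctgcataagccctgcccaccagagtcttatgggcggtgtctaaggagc
Slc25a15: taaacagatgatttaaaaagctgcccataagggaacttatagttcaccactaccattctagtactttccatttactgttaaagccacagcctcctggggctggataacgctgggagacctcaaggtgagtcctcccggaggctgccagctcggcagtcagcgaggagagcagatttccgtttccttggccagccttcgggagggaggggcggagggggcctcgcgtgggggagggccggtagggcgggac
Slc25a13: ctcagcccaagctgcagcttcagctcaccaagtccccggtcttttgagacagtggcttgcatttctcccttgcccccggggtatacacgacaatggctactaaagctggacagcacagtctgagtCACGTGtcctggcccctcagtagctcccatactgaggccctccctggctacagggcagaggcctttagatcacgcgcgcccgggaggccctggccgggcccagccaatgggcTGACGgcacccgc
The capitals in *Slc25a22* are CAAAGT, a core of HNF4 sites, at positions -70 to -65, counted from the base before the start as -1. In *Slc25a13* they are the E-box CACGTG at -125 to -120 and TGACG, the first bases of the cyclic AMP response element, at -13 to -9. Of all 32817 windows of this length, 12.6% held CAAAGT, 6.02% CACGTG and 17.7% TGACG. The *Slc25a15* window held none of the motifs searched. The other motifs were TGACGTCA (the full cyclic AMP response element, which contains TGACG), TTGCNNAA for C/EBP, AGAACA for the glucocorticoid receptor, TGATGNAA for ATF4 with C/EBP, TGACNNNGC for the antioxidant element (which can overlap TGACG) and TATAAA. They were in 1.55%, 9.57%, 16.1%, 3.45%, 10.2% and 12.4% of all windows. *Otc*, *Ass1*, *Nags* and *Glud1* were the other members with a window, and of these *Ass1* held a match, CACGTG at -36 to -31. A match describes letters and not a bound site, and no window was given for *Cps1*, *Asl* and *Arg1*.

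Set against control livers, APAP livers had 2.16-fold more *Cps1* and 2.14-fold more *Slc25a22* transcript. *Asl* rose 1.79-fold and *Slc25a13* 1.35-fold, while *Otc* and *Glud1* fell, to 0.769 and 0.778 of control. *Nags*, *Ass1*, *Arg1* and *Slc25a15* did not pass the test. Here and below a gene counts as changed at an adjusted p below 0.05 in the quasi-likelihood test of edgeR, with p-values adjusted over all 10051 genes by the method of Benjamini and Hochberg. Of the 10 members 4 rose and 2 fell, beside 23.3% and 22.1% of all tested genes (45.4% in either direction), so the number of calls alone does not set the members apart. Their median log2 fold change was 0.31, beside 0.00 over all tested genes. Scaled to library totals alone, the median of all genes moved to -0.15, the share of rises among all called genes went to 40.0% in place of 51.3%, and the members' calls became 3 rises and 3 falls. With 1 library left out in turn, 4 members were called without either COS+APAP library, 3 without either APAP library or control replicate 1, and 2 without control replicate 3. The FPKM of the libraries did not overlap between the groups for 8 of the 10 members, beside 76.2% of all tested genes.

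Set against APAP livers, COS+APAP livers had 2.19-fold more *Slc25a22*, 1.94-fold more *Slc25a15* and 1.80-fold more *Arg1* transcript. No member fell, and the other 7 did not pass the test. Of all tested genes 11.2% rose and 11.1% fell (22.4% in either direction). The median log2 fold change of the members was 0.34, beside 0.01 over all tested genes, and 7 of 10 did not overlap in FPKM, beside 68.5% of all tested genes. Scaled to library totals alone, the share of rises among all called genes went to 46.3% in place of 50.2%, and 2 members rose and 0 fell. Leaving out APAP replicate 1 left 1 of the 3 calls, *Slc25a22*, and leaving out any other library left 2.

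Set against control livers, COS+APAP livers had 6 members higher and 1 lower. *Slc25a22* rose 4.68-fold, *Asl* 2.37-fold, *Slc25a15* 2.24-fold, *Arg1* 2.10-fold, *Cps1* 1.88-fold and *Ass1* 1.59-fold, and *Otc* fell to 0.714 of control. Of all tested genes 10.7% rose and 10.3% fell (21.0% in either direction). The members' median log2 fold change was 0.79, beside 0.02 over all tested genes, and 9 of 10 did not overlap in FPKM, beside 67.3% of all tested genes. Scaled to library totals alone the median of all genes moved to -0.15, the share of rises among all called genes went to 30.4% in place of 50.9%, and 4 members rose and 1 fell. With 1 library left out in turn, 5 members were called without either APAP library, 3 without COS+APAP replicate 2 or control replicate 1, 2 without COS+APAP replicate 3 and 1 without control replicate 3, *Slc25a22*. The comparisons share their libraries, so that a high APAP or control value enters 2 of them, and their values are given side by side.

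**Figure D1:**
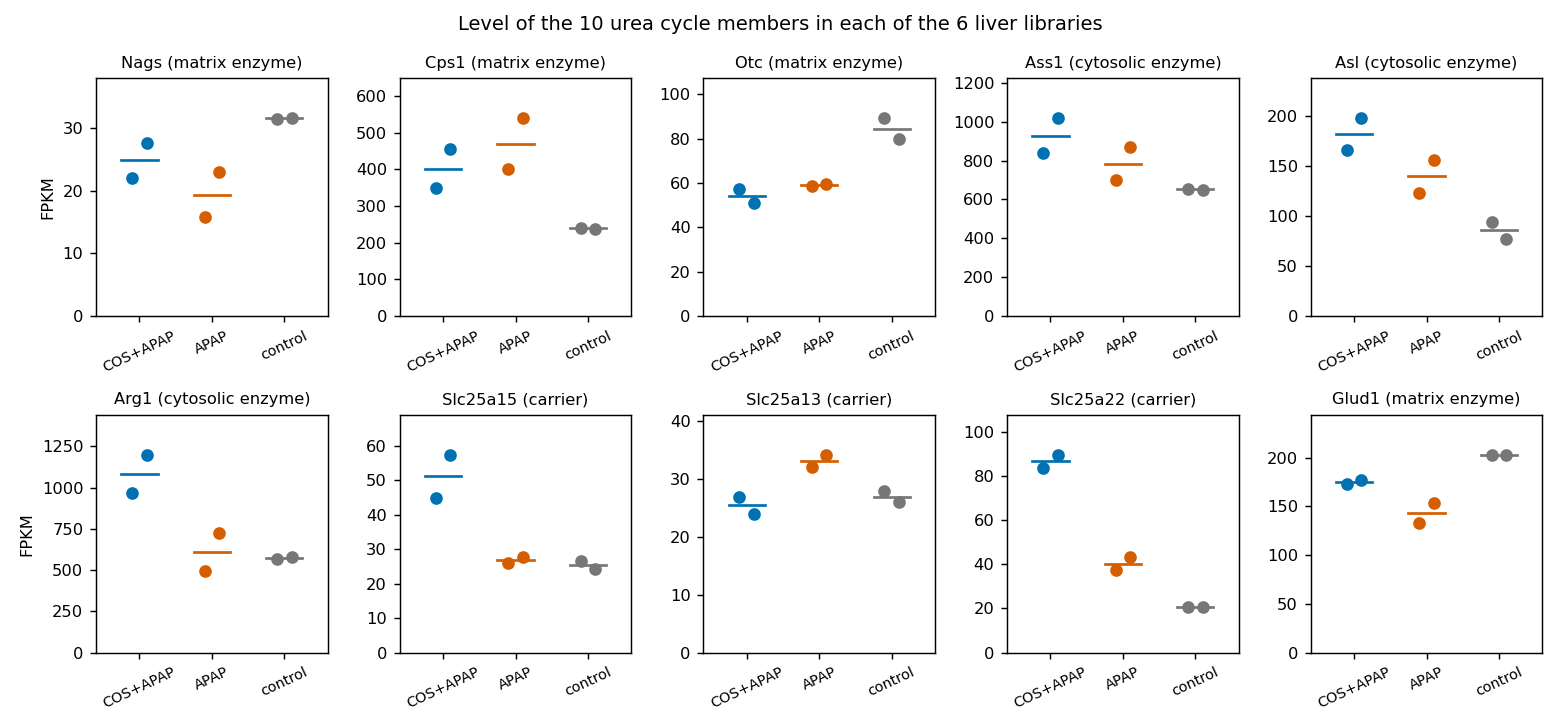
Level of each member in FPKM (vertical axis, linear from 0, a scale of its own in each panel) in the 2 libraries of each group; dots are libraries and bars are group means. *Slc25a22* steps up between all 3 groups, *Arg1* and *Slc25a15* stand apart in COS+APAP, and *Otc* is lower in both treated groups than in control.

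The enzymes of the mitochondrial matrix did not move together. *Cps1* (ENSMUSG00000025991, chromosome 1, 67123026 to 67231259, plus strand) encodes carbamoyl-phosphate synthetase 1, the entry and rate-controlling enzyme of the cycle. It had 348.3 and 455.98 FPKM in COS+APAP, 400.02 and 540.39 in APAP, and 240.77 and 236.65 in control. Both treated groups lay above control without overlap and overlapped each other. The log2 fold change was 1.11 ± 0.21 (SE) for APAP against control (adjusted p = 0.00929), and this call held in all 17 alternatives run. For COS+APAP against APAP it was -0.20 ± 0.20 (adjusted p = 0.507), which came to 0.0013 without APAP replicate 3. For COS+APAP against control it was 0.91 ± 0.21 (adjusted p = 0.0332), a call lost when either COS+APAP or either control library was left out (highest adjusted p 0.137) and with library totals as the scale (0.0578).

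*Otc* (ENSMUSG00000031173, chromosome X, 10252305 to 10321024, plus strand) encodes ornithine transcarbamylase, which joins carbamoyl phosphate to ornithine to make citrulline. Its libraries had 57.48 and 50.9 FPKM in COS+APAP, 58.68 and 59.58 in APAP, and 89.35 and 79.78 in control. Every library of the treated groups was below both control libraries. The fall amounted to a log2 fold change of -0.38 ± 0.12 for APAP against control (adjusted p = 0.0483) and -0.49 ± 0.12 for COS+APAP against control (adjusted p = 0.0421), and COS+APAP against APAP gave -0.11 ± 0.12 (adjusted p = 0.551). Both calls were close to the threshold and were lost without a filter on low values (0.106 and 0.0995) and whichever of the 6 libraries was left out (adjusted p 0.0615 to 0.173 and 0.0683 to 0.174), with values between -0.47 and -0.28 and between -0.58 and -0.39.

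*Nags* (ENSMUSG00000048217, chromosome 11, 102145513 to 102149477, plus strand) encodes N-acetylglutamate synthase, whose product is the obligate activator of the *Cps1* enzyme. It had 22.12 and 27.68 FPKM in COS+APAP, 15.87 and 22.94 in APAP, and 31.57 and 31.66 in control. The control libraries were highest and the treated groups overlapped each other, but none of the differences passed the test. APAP against control gave a log2 fold change of -0.57 ± 0.20 (adjusted p = 0.0638), which passed without APAP replicate 3 (-0.83, adjusted p = 0.0359), with DESeq2 (-0.57, 0.0257) and with library totals as the scale (-0.72, 0.0383). COS+APAP against APAP gave 0.38 ± 0.20 (adjusted p = 0.216) and COS+APAP against control -0.19 ± 0.20 (adjusted p = 0.54). *Gm11586*, on the opposite strand, overlaps *Nags* over 698 bases with a mean of 0.957 FPKM. The sources used here do not say that counting used strand, and without it reads of that overlap cannot be told apart. It was the single gene of the table found to overlap a member.

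The 3 cytosolic enzymes were all higher in COS+APAP than in control. *Ass1* (ENSMUSG00000076441, chromosome 2, 31470207 to 31520672, plus strand) encodes argininosuccinate synthetase 1, which joins citrulline to aspartate. It had 838.5 and 1019.13 FPKM in COS+APAP, 698.84 and 869.21 in APAP, and 651.38 and 650.5 in control. Its libraries rose in the order control, APAP, COS+APAP, with an overlap between the treated groups. The log2 fold change was 0.27 ± 0.17 for COS+APAP against APAP (adjusted p = 0.287), 0.67 ± 0.17 for COS+APAP against control (adjusted p = 0.0425) and 0.40 ± 0.17 for APAP against control (adjusted p = 0.098). The call for COS+APAP against control was lost in 12 of 16 alternatives. Among them were library totals as the scale (adjusted p = 0.0934), no filter on low values (0.0627), a fit of these 2 groups alone (0.0623) and limma at either pseudocount. It was also lost whichever library was left out (log2 fold change 0.51 to 0.81). The pseudogene *Ass-ps1*, a processed copy, was listed at 0 in all 6 libraries.

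*Asl* (ENSMUSG00000025533, chromosome 5, 130011258 to 130025019, minus strand) encodes argininosuccinate lyase, which splits argininosuccinate into arginine and fumarate. Its levels were 166.55 and 198.38 FPKM in COS+APAP, 123.4 and 156.51 in APAP, and 94.33 and 77.53 in control. No library of a group overlapped another group. The log2 fold change was 0.84 ± 0.18 for APAP against control (adjusted p = 0.0152), 1.24 ± 0.18 for COS+APAP against control (adjusted p = 0.0115) and 0.41 ± 0.18 for COS+APAP against APAP (adjusted p = 0.164). The APAP call was lost without APAP replicate 3 or control replicate 3 (adjusted p up to 0.0696), and the COS+APAP call without COS+APAP replicate 3 or control replicate 3 (up to 0.0569).

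*Arg1* (ENSMUSG00000019987, chromosome 10, 24915221 to 24927484, minus strand) encodes liver arginase, which releases urea and returns ornithine to the cycle. It had 967.42 and 1199.54 FPKM in COS+APAP, 494.65 and 726.55 in APAP, and 569.51 and 581.6 in control. Both COS+APAP libraries were above all 4 others, and the APAP libraries lay on either side of control. The log2 fold change was 0.85 ± 0.21 for COS+APAP against APAP (adjusted p = 0.0413) and 1.07 ± 0.21 for COS+APAP against control (adjusted p = 0.0244). APAP against control gave 0.22 ± 0.21 (adjusted p = 0.44), and -0.05 without APAP replicate 3. The call against APAP was lost in 9 of 16 alternatives. When libraries were left out in turn, it held only without APAP replicate 3 (log2 fold change 0.62 to 1.12). It was also lost with library totals as the scale (adjusted p = 0.052), without a filter on low values (0.0584) and in a fit of these 2 groups alone (0.0662). The call against control was lost without either COS+APAP library or either control library (adjusted p up to 0.109). *Arg1* is also known as a gene of macrophages. The Kupffer cell markers summed to 68.79 to 74.69 FPKM in COS+APAP, 59.52 to 85.55 in APAP and 53.27 to 58.14 in control over 7 genes. Those of monocytes and macrophages summed to 19.12 to 19.23, 37.22 to 49.15 and 24.39 to 25.45 FPKM in the same groups over 6 genes, with *Nos2* listed at 0 throughout. The part of these cells in the *Arg1* difference was not tested.

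Among the carriers, *Slc25a22* (ENSMUSG00000019082, chromosome 7, 141429744 to 141437892, minus strand) encodes a glutamate carrier that brings glutamate into the matrix together with a proton. It had 83.82 and 89.74 FPKM in COS+APAP, 37.22 and 43.23 in APAP, and 20.78 and 20.52 in control. The 3 groups were separate, with *Slc25a22* 2.19-fold higher in COS+APAP than in APAP and 2.14-fold higher in APAP than in control. The log2 fold change was 1.13 ± 0.11 for COS+APAP against APAP (adjusted p = 0.00648), 2.23 ± 0.12 for COS+APAP against control (adjusted p = 0.00207) and 1.10 ± 0.11 for APAP against control (adjusted p = 0.00213). Each of these calls held in every alternative run, including the omission of each library (adjusted p up to 0.0401, 0.0148 and 0.0184 over the alternatives). Of the members, *Slc25a22* was lowest in control.

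*Slc25a15* (ENSMUSG00000031482, chromosome 8, 22375551 to 22398597, minus strand) encodes the ornithine carrier, which exchanges cytosolic ornithine for matrix citrulline. It had 44.86 and 57.49 FPKM in COS+APAP, 25.91 and 27.66 in APAP, and 26.47 and 24.4 in control. The COS+APAP libraries were above the other 4, which overlapped. The log2 fold change was 0.95 ± 0.15 for COS+APAP against APAP (adjusted p = 0.0151), 1.17 ± 0.15 for COS+APAP against control (adjusted p = 0.0091) and 0.21 ± 0.15 for APAP against control (adjusted p = 0.302). Leaving out APAP replicate 1 or 3 ended the call against APAP (highest adjusted p 0.0747), and leaving out control replicate 3 that against control (0.053).

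*Slc25a13* (ENSMUSG00000015112, chromosome 6, 6041218 to 6217173, minus strand) encodes citrin, the carrier that exports aspartate from the matrix for the *Ass1* reaction in exchange for glutamate. It had 26.86 and 23.96 FPKM in COS+APAP, 31.97 and 34.17 in APAP, and 27.87 and 25.93 in control. Here the APAP libraries were the highest and the other groups overlapped. APAP against control gave a log2 fold change of 0.43 ± 0.11 (adjusted p = 0.0248), a call lost with library totals as the scale (0.0921), without a filter on low values (0.0612) and without any of the APAP or control libraries (up to 0.103). COS+APAP against APAP gave -0.36 ± 0.11 (adjusted p = 0.0691), called with DESeq2 (adjusted p = 0.00901), and COS+APAP against control gave 0.07 ± 0.11 (adjusted p = 0.67), whose sign turned under library totals.

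*Glud1* (ENSMUSG00000021794, chromosome 14, 34310727 to 34345265, plus strand) had 172.45 and 177.27 FPKM in COS+APAP, 133.11 and 153.9 in APAP, and 202.99 and 202.29 in control. The groups did not overlap, with COS+APAP between APAP and control. APAP against control gave a log2 fold change of -0.36 ± 0.11 (adjusted p = 0.0482), which was lost without a filter on low values (0.0934) and whichever library was left out (0.0784 to 0.189). COS+APAP against APAP gave 0.31 ± 0.11 (adjusted p = 0.112) and COS+APAP against control -0.06 ± 0.11 (adjusted p = 0.757). A processed pseudogene, *Glud-ps*, was listed at 3.45 to 4.75 FPKM in COS+APAP, 3.11 to 4.53 in APAP and 2.98 to 3.21 in control, and reads of near-identical copies can be split between these genes.

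**Figure D2:**
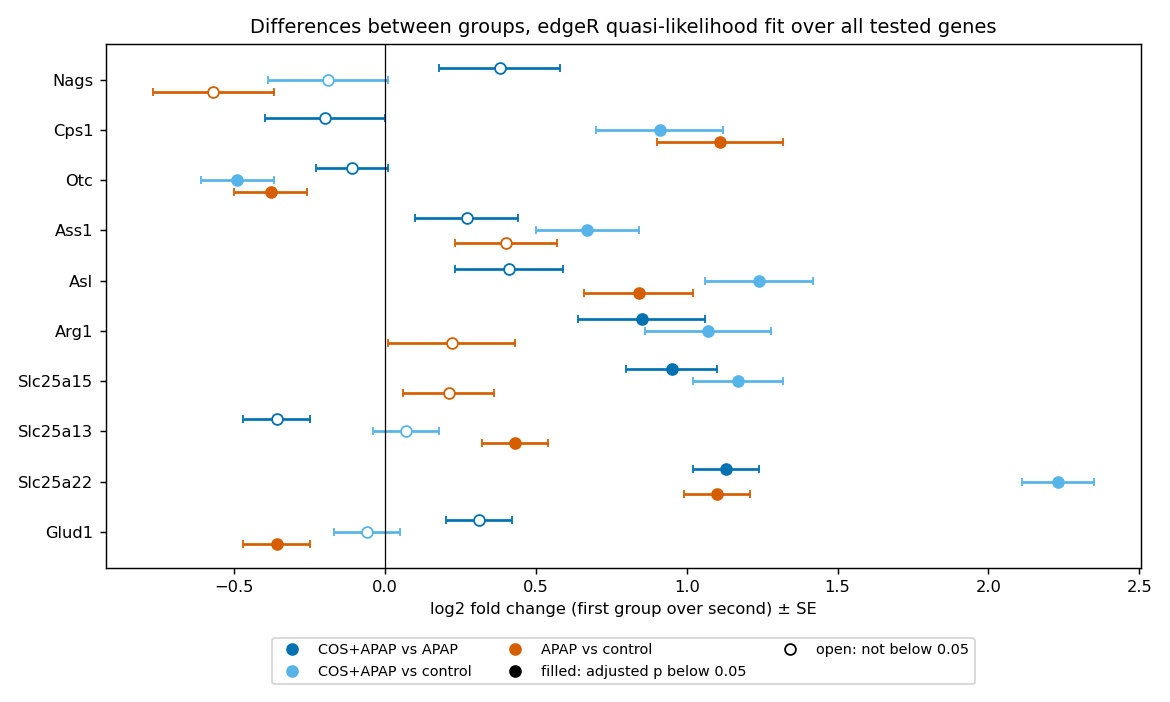
Log2 fold change of each member (horizontal axis, first group over second, bars are SE) in the 3 comparisons, with 2 libraries a group; filled dots have an adjusted p below 0.05. *Slc25a22* is filled in all 3 comparisons and reaches 2.23 for COS+APAP against control, *Cps1* and *Asl* are filled in both comparisons with control, and *Arg1* and *Slc25a15* in both comparisons of COS+APAP.

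By FPKM, *Arg1* led in COS+APAP with a mean of 1083 ± 164 (SD, n = 2), followed by *Ass1* with 928.8 ± 128, and their libraries overlapped. *Ass1* led in APAP with 784.0 ± 120 and in control with 650.9 ± 0.622, ahead of *Arg1* with 610.6 ± 164 and 575.6 ± 8.55. These overlapped in APAP and not in control. *Cps1* was the third in every group, and its libraries overlapped those of *Arg1* in APAP. The other enzymes ran from *Glud1*, *Asl* and *Otc* down to *Nags*, where *Glud1* and *Asl* overlapped in both treated groups and *Asl* and *Otc* in control. The lowest level was that of *Nags* in COS+APAP (24.9 ± 3.93 FPKM, overlapping *Slc25a13*) and in APAP (19.41 ± 5.00), and that of *Slc25a22* in control (20.65 ± 0.184). *Slc25a22* had the tenth level in control and the seventh in APAP, and stood above *Otc* in COS+APAP.

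Ratios between members within a library do not depend on how libraries were scaled, and 6 were taken after the values had been seen. *Cps1* over *Otc* was 6.06 and 8.96 in COS+APAP, 6.82 and 9.07 in APAP, and 2.69 and 2.97 in control. Transcripts of the consecutive matrix enzymes thus stood further apart in both treated groups. *Arg1* over *Ass1* was 1.15 and 1.18 in COS+APAP, 0.708 and 0.836 in APAP, and 0.874 and 0.894 in control, so that the ratio exceeded 1 in the COS+APAP libraries and was below 1 in the other 4. *Slc25a22* over *Slc25a13* was 3.12 and 3.75 in COS+APAP, 1.16 and 1.27 in APAP, and 0.746 and 0.791 in control, with no overlap. *Slc25a15* over *Slc25a13* was 1.67 and 2.4 in COS+APAP, 0.81 and 0.809 in APAP, and 0.95 and 0.941 in control. *Cps1* over *Glud1* was highest in APAP, at 3.01 and 3.51, beside 2.02 and 2.57 in COS+APAP and 1.19 and 1.17 in control. *Asl* over *Ass1* was 0.199 and 0.195 in COS+APAP, 0.177 and 0.18 in APAP, and 0.145 and 0.119 in control, again with no overlap. With 2 libraries against 2 an exact permutation test cannot give a p below 0.333, and none is given.

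**Figure D3:**
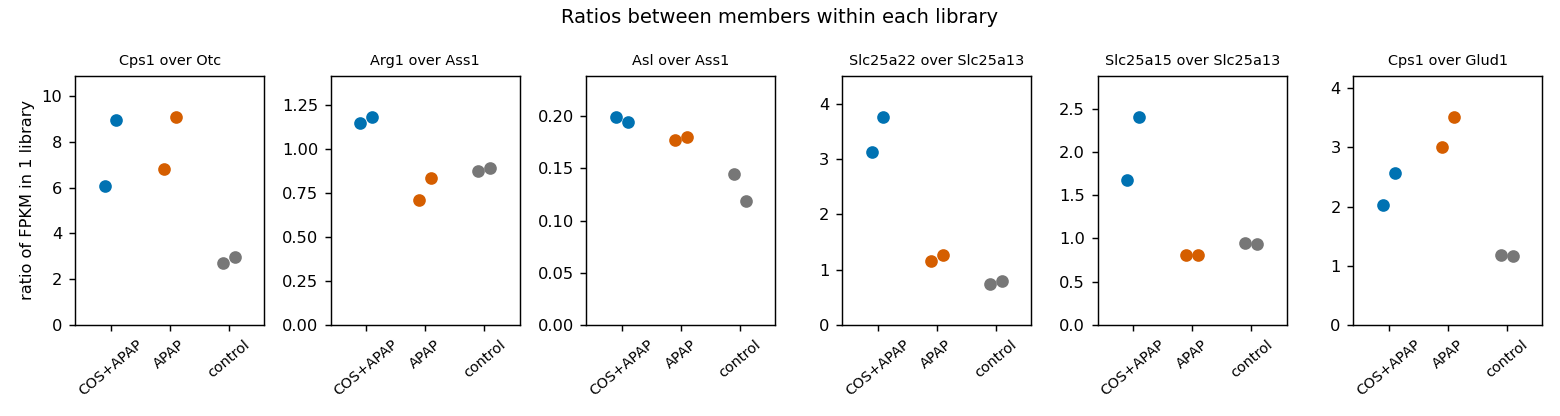
Ratio of the FPKM of 2 members within each library (vertical axis, linear from 0, a scale of its own in each panel) by group; dots are libraries. The *Slc25a22* to *Slc25a13* ratio is above 3 in both COS+APAP libraries and below 1 in both control libraries, and the *Cps1* to *Otc* ratio is below 3 in control and above 6 in both treated groups.

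Over the 6 libraries, the pattern of log2(FPKM + 1) was alike for *Ass1*, *Asl*, *Arg1*, *Slc25a15* and *Slc25a22*, whose pairwise Pearson r ran from 0.80 to 0.95. *Nags* and *Glud1* were alike at 0.96. *Otc* ran opposite to *Cps1* (-0.86), *Asl* (-0.90) and *Slc25a22* (-0.90), while *Slc25a13* reached 0.42 at most with any other member (*Cps1*). These points share 3 group means and 6 libraries. Among all tested genes the pattern most like that of *Slc25a22* was that of *Fgb*, a fibrinogen chain (r = 0.9977), and then *Erc1* (0.9957). The nearest to *Arg1* were *Sec22c* (0.9988) and *Isyna1* (0.9918), to *Slc25a15* *Slc45a3* (0.9953) and *Saa3* (0.9951), to *Cps1* *Nsmce2* (0.9907) and *Aebp2* (0.9887), and to *Asl* *Hgsnat* (0.9934) and *Fn1* (0.9918). *Otc* was most like *Ftcd* (0.9973) and *Tmem160* (0.9969), *Nags* like *Gm16437* (0.9968) and *Gpt* (0.9932), *Glud1* like *Smarcd2* (0.9977) and *Ptpn3* (0.9976), *Slc25a13* like *Ctss* (0.9974) and *Apoa1* (0.9923), and *Ass1* like *As3mt* (0.9917) and *Tmem39a* (0.9883). Between 11 tested genes (for *Ass1*) and 430 (for *Glud1*) had an r above 0.95 with a member.

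The genes that supply the cycle with bicarbonate and aspartate, and those that take up its fumarate, differed among themselves. Of 9 tested genes in this list, 2 rose and 2 fell in APAP against control, 2 rose and 0 fell in COS+APAP against APAP, and 3 rose and 1 fell in COS+APAP against control. Of all tested genes, 45.4%, 22.4% and 21.0% were called in either direction in these comparisons. The median log2 fold changes of the list were -0.16, 0.31 and 0.10. *Car5a*, the matrix carbonic anhydrase that makes bicarbonate for the *Cps1* enzyme, had 13.06 and 12.64 FPKM in COS+APAP, 9.02 and 8.92 in APAP, and 35.25 and 26.98 in control, a log2 fold change of -1.66 for APAP (adjusted p = 0.00194) and -1.12 for COS+APAP (adjusted p = 0.0113) against control. Its transcript was thus lower in the groups where that of *Cps1* was higher. *Got1*, the cytosolic aspartate aminotransferase, had 127.69 and 123.11 FPKM in COS+APAP, 74.01 and 63.49 in APAP, and 45.6 and 20.53 in control. *Got1* rose by 1.19 in APAP (adjusted p = 0.0467) and 2.07 in COS+APAP (adjusted p = 0.0198) against control. *Fh1*, the fumarase that hydrates fumarate, rose by 0.70 in COS+APAP against APAP (adjusted p = 0.028). *Slc25a12*, the other aspartate carrier of mitochondria, rose against control by 0.80 in APAP (adjusted p = 0.01) and 0.99 in COS+APAP (adjusted p = 0.0126). Its levels were at most 2.03 FPKM.

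Of the 13 tested genes of glutamine and ammonia handling, 3 rose and 4 fell in APAP against control, 5 rose and 1 fell in COS+APAP against APAP, and 3 rose and 0 fell in COS+APAP against control (medians 0.14, 0.20 and 0.21). The shares of all tested genes called in either direction were 45.4%, 22.4% and 21.0%. *Glul*, the glutamine synthetase with which pericentral hepatocytes catch the ammonia that the cycle leaves, had 128.95 and 82.93 FPKM in COS+APAP, 18.0 and 27.78 in APAP, and 158.54 and 141.34 in control. The APAP libraries were far below the others, with log2 fold changes of -2.58 for APAP against control (adjusted p = 0.00246) and 2.23 for COS+APAP against APAP (adjusted p = 0.00992). *Gls2*, the liver glutaminase that feeds ammonia to the cycle in periportal hepatocytes, did not pass in any comparison, at 0.18 for APAP against control, -0.11 for COS+APAP against APAP and 0.07 for COS+APAP against control (adjusted p = 0.293, 0.578 and 0.718). The ammonia transporter *Rhbg* had 6.05 and 4.3 FPKM in COS+APAP, 0.18 and 0.38 in APAP, and 8.13 and 4.36 in control, and *Slc1a2*, a glutamate transporter, was at 7.63 and 4.49, 0.0 and 0.05, and 7.91 and 6.74 FPKM in the same groups.

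Among other routes of arginine and ornithine, 6 of 16 tested genes rose and 4 fell in APAP against control, 3 rose and 4 fell in COS+APAP against APAP, and 2 rose and 2 fell in COS+APAP against control (medians 0.25, -0.44 and 0.09). Over all tested genes, 45.4%, 22.4% and 21.0% were called in either direction. *Oat*, which breaks ornithine down in pericentral hepatocytes, had 214.1 and 194.09 FPKM in COS+APAP, 16.03 and 22.48 in APAP, and 302.01 and 270.08 in control. *Slc7a2*, a transporter of arginine and ornithine at the cell surface, had 59.08 and 59.58 FPKM in COS+APAP, 26.87 and 35.46 in APAP, and 5.72 and 15.68 in control, a rise of 2.63 for COS+APAP (adjusted p = 0.0181) and 1.68 for APAP (adjusted p = 0.0303) against control on the log2 scale. *Arg2*, the mitochondrial arginase, did not exceed 0.51 FPKM in any library, and *Slc25a2*, a second ornithine carrier, did not exceed 0.30.

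Of 16 genes of transamination and amino acid breakdown, 3 rose and 3 fell in APAP against control, 2 rose and 0 fell in COS+APAP against APAP, and 5 rose and 2 fell in COS+APAP against control (medians -0.15, 0.11 and -0.10). These counts, and those of the channels below, stand beside 45.4%, 22.4% and 21.0% of all tested genes called in either direction. *Tat*, tyrosine aminotransferase, had 1385 and 1676 FPKM in COS+APAP, 529.79 and 964.43 in APAP, and 487.65 and 316.31 in control, and rose by 2.08 in COS+APAP against control (adjusted p = 0.0161). *Sds*, serine dehydratase, rose by 1.27 in COS+APAP against APAP (adjusted p = 0.0246) and by 2.01 against control (adjusted p = 0.00877). Of 4 tested urea and water channels 1 rose and 1 fell in APAP against control, 0 rose and 2 fell in COS+APAP against APAP, and 0 rose and 3 fell in COS+APAP against control (medians -0.32, -0.88 and -0.57), with *Aqp8* at -2.24 in the last (adjusted p = 0.00966). The urea transporter *Slc14a1* was at most 0.06 FPKM in every library.

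Of 18 tested genes known to regulate the cycle's genes or enzymes, 3 rose and 8 fell in APAP against control, 7 rose and 0 fell in COS+APAP against APAP, and 3 rose and 4 fell in COS+APAP against control (medians -0.50, 0.36 and 0.05). The shares called in either direction over all tested genes were 45.4%, 22.4% and 21.0%. *Hnf4a*, the hepatocyte nuclear receptor, had 122.11 and 121.47 FPKM in COS+APAP, 120.75 and 175.62 in APAP, and 78.35 and 73.44 in control. *Hnf4a* rose in APAP (log2 fold change 1.10, adjusted p = 0.00668) and in COS+APAP (0.84, adjusted p = 0.0299) against control. *Ppargc1a*, a coactivator of fasting metabolism, had 2.64 and 1.84 FPKM in COS+APAP, 0.65 and 0.77 in APAP, and 0.78 and 0.74 in control, higher by 1.68 in COS+APAP than in APAP (adjusted p = 0.0105). *Klf15*, which is known to act on genes of amino acid breakdown and the cycle, fell by 1.73 in APAP against control (adjusted p = 0.00497), and *Sirt5*, a deacylase of the *Cps1* enzyme, fell by 1.60 (adjusted p = 0.00187). In COS+APAP against APAP, *Klf15* rose by 1.46 (adjusted p = 0.018) and *Sirt5* by 0.75 (adjusted p = 0.0253). Against control, *Sirt5* was lower in COS+APAP too (-0.85, adjusted p = 0.0193), and *Klf15* did not pass (-0.27, adjusted p = 0.481).

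**Figure D4:**
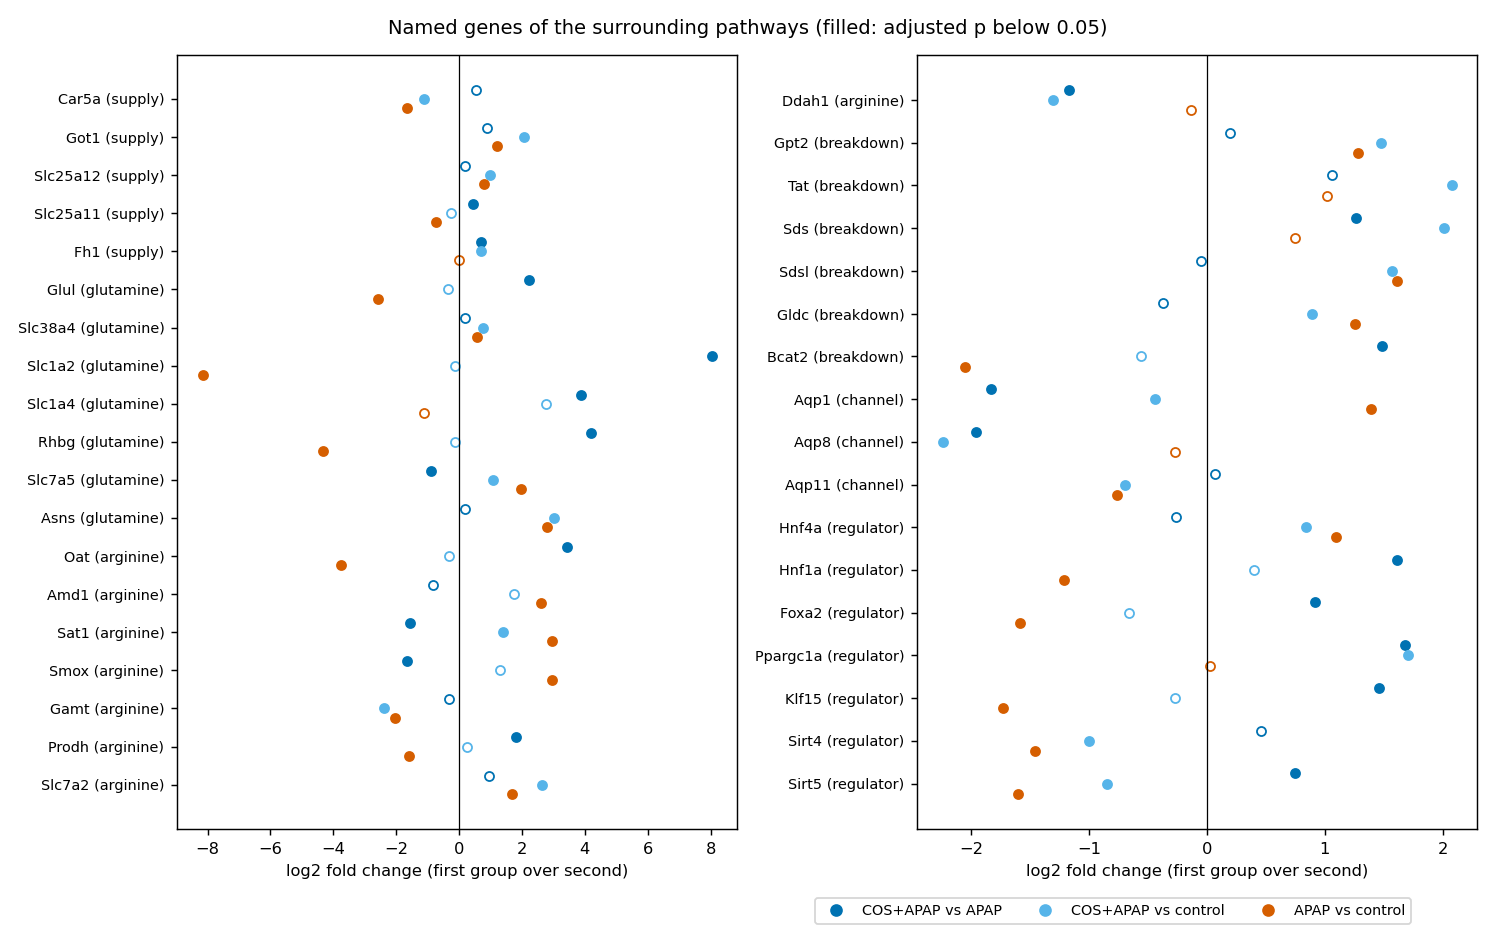
Log2 fold change (horizontal axis, first group over second, with a scale of its own in each panel) of genes named from the surrounding pathways; filled dots have an adjusted p below 0.05. *Glul*, *Rhbg*, *Slc1a2* and *Oat* lie left of 0 for APAP against control and right of 0 for COS+APAP against APAP.

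Markers of the hepatocyte zones are set beside the members. Some of them were already counted in the lists above: *Glul*, *Oat*, *Slc1a2* and *Rhbg* of the pericentral markers, and *Sds*, *Hal* and *Gls2* of the periportal markers. The counts here and there are thus not separate results. In the 3 comparisons below, in the order given, 45.4%, 22.4% and 21.0% of all tested genes were called in either direction. Of 10 tested pericentral markers, 0 rose and 10 fell in APAP against control, 10 rose and 0 fell in COS+APAP against APAP, and 0 rose and 1 fell in COS+APAP against control (medians -3.31, 2.83 and -0.21). Their summed level over 12 genes was 2860 to 3463 FPKM in COS+APAP, 927.5 to 1353 in APAP and 2709 to 3453 in control. Most of this sum was *Cyp2e1*, with 2773 and 2265 FPKM in COS+APAP, 815.5 and 1189 in APAP, and 2360 and 1644 in control. Of 9 periportal markers that are not members, 4 rose and 0 fell in APAP against control, 1 rose and 4 fell in COS+APAP against APAP, and 1 rose and 0 fell in COS+APAP against control (medians 0.75, -0.69 and 0.37), with sums of 1645 to 1790, 2053 to 2186 and 1196 to 1594 FPKM in COS+APAP, APAP and control. *Arg1*, *Slc25a15* and *Slc25a22* were higher in COS+APAP than in APAP, and the periportal markers were divided. *Cyp2f2*, *Hsd17b13*, *Ctsc* and *Pigr* were lower in COS+APAP than in APAP, at -1.16, -1.49, -0.69 and -0.99 (adjusted p = 0.0108, 0.00635, 0.0289 and 0.00951). The periportal marker *Sds* was higher, at 1.27 (adjusted p = 0.0246), and the other 4 did not pass the test. Small intestine, which also makes the *Cps1* and *Otc* enzymes, was followed by 4 markers, which summed to 690 to 1045 FPKM in COS+APAP, 2310 to 3120 in APAP and 361.4 to 519.4 in control. Most of this sum was *Apoa4*, an apolipoprotein that mouse liver makes too, with 947.56 and 624.83 FPKM in COS+APAP, 3016.98 and 2233.46 in APAP, and 407.85 and 266.03 in control. *Apoa4* rose in APAP (log2 fold change 3.10, adjusted p = 0.00239) and in COS+APAP (1.37, adjusted p = 0.0374) against control, as *Cps1* did, and was lower in COS+APAP than in APAP (-1.73, adjusted p = 0.0213). *Fabp2* passed in no comparison, *Alpi* was listed at 0 in all libraries and *Vil1* was at most 0.08 FPKM. Erythroid markers summed to 309.3 to 316.4 FPKM in COS+APAP, 1075 to 1492 in APAP and 269.4 to 297.5 in control over 5 genes. The part of the zones, of intestine and of blood in the members' differences was not tested.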

How the data were processed

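Poly(A) RNA of 6 mouse liver libraries was sequenced in pairs of reads, per the labels' protocols. Per the submitters' processing notes, the tools were HISAT2 2.0, an aligner, and StringTie 1.3.0, an assembler. The build was not given in the sources used. Of the table's Ensembl identifiers 55141 were in mouse GENCODE release 21, 94.2% of them with identical coordinates, as for 9 of the 10 members (*Asl* differed). Coordinates of genes are those of the table. The deposited table gives, per the file headers, estimated counts and FPKM for each gene. It also has 6 value columns, headed control2 or drugtr, that could be tied to no library, and these stayed out. Whether the number in control2 is the first number of the COS+APAP titles was not tested. The estimated counts were whole numbers. Counts of 4 (766 to 990 genes per library) outnumbered counts of 3 (290 to 350), and an alternative divided all counts by 4.

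Testing covered genes averaging 1 FPKM or more and was done with edgeR 4.0.16 (R 4.3.3; quasi-likelihood F test, two-sided, TMM scaling, 3 groups in 1 model of 6 libraries, 3 residual degrees of freedom), with Benjamini-Hochberg adjustment over 10051 genes. SE is the log2 fold change over the square root of F. Alternatives used DESeq2 1.42.0, limma 3.58.1 on log2(FPKM + 1) or log2(FPKM + 0.1), other scalings and filters, and omission of each library. Of a symbol with several entries that with the highest mean FPKM was used, and members and lists were chosen with earlier results of these data known. From each list the text draws on the called genes with the largest changes, at most 4 a comparison. *Gls2*, *Arg2*, *Slc25a2*, *Slc14a1*, the pseudogenes and the periportal markers were named after their values had been seen.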

Additional observations from a re-analysis of the deposited data

How the results depend on the processing

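Of 490 recomputed differences of single members (30 differences under 16 or 17 alternatives each), 397 kept direction and side of the threshold, 79 lost a call, 8 gained one and 6 changed sign. The sign changes were all of values that were not called: *Slc25a13* for COS+APAP against control (-0.10 with library totals, -0.08 with limma at either pseudocount, -0.0016 without COS+APAP replicate 2; -0.0016 to 0.14 with 1 library left out), *Arg1* for APAP against control (-0.05 without APAP replicate 3; -0.05 to 0.44) and *Cps1* for COS+APAP against APAP (0.0013 without APAP replicate 3; -0.42 to 0.0013).

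The number of members called for APAP against control, 6, became 3 without a filter on low values and 2 with the replicate block, and the cause was not tested. Same-numbered APAP and control libraries did not deviate together over all tested genes (r = -0.00523 over 10051 genes). With 2 libraries a group this cannot decide whether the numbers mark pairs, and the labels do not say. The number of members called for COS+APAP against APAP, 3, became 5 with DESeq2, where all called genes numbered 3552 in place of 2249; all called genes for COS+APAP against control numbered 3421 in place of 2109. With 1 library left out, where the lone library of a group is assumed to vary like the others, the members called were 2 to 4 for APAP against control, 1 to 2 for COS+APAP against APAP and 1 to 5 for COS+APAP against control (all genes 3044 to 4117, 612 to 1941 and 590 to 1724). Each of these fits holds fewer libraries. With limma on log2(FPKM + 1) the share of rises among called genes was 40.7% for APAP against control and 29.4% for COS+APAP against control, and with log2(FPKM + 0.1) 40.4% and 30.5%. For the comparisons with COS+APAP no paired analysis was possible because these libraries share 1 replicate number with each other group. The block moved all calls for APAP against control to 1709 rises and 1478 falls. The lowest count of a member was 3583 (*Nags*).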
